A study of Mus musculus with 4 samples.

Results

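Peroxiredoxins, glutathione enzymes and superoxide dismutases are the proteins by which a cell removes superoxide, hydrogen peroxide and lipid peroxides. A set of 10 of their genes was followed by symbol in a table of 55453 genes: Prdx1, Prdx2, Prdx3, Prdx4, Prdx5, Prdx6, Gpx4, Gsta4, Sod1 and Sod2. All 10 were in the table and all 10 had enough counts to be tested. The samples were mouse oocytes taken directly from the ovary in the germinal vesicle stage, when meiosis rests in prophase. The control group (genotype WT) had 2 libraries and the Parp12 knockdown group had 2. Parp12 encodes an ADP-ribosyltransferase, and the study compared oocyte RNA with and without its reduction. The sources used here do not give the knockdown method, the strain, the age of the mice or the number of oocytes per library.

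Superoxide leaks from the respiratory chain and from oxidases, and superoxide dismutases turn it into hydrogen peroxide. Peroxiredoxins reduce the peroxide with a reactive cysteine and are recycled mostly by thioredoxin, while glutathione peroxidases and transferases draw on glutathione. Both branches depend on NADPH. The oocyte carries a large store of mitochondria and waits long in prophase, and the protection of its DNA, spindle and membranes from oxidation is a known theme of oocyte quality.

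Library totals ran from 35805122 to 45230773 counts, and the 10 genes together took between 0.218% and 0.235% of them. Parp12 itself gave 14279 and 9419 counts in control libraries against 32 and 86 in knockdown libraries, which matched the labels (log2 fold change -7.51, SE 0.34). With edgeR its adjusted p was 1.27e-07, and it was the 1 gene called among 15868 (0.0063%). With limma-voom its call was lost (adjusted p 0.280, the highest of its 12 alternatives). All 12 oocyte markers were detected, led by Gdf9, and summed to 24178 and 25070 CPM (counts scaled to a common library total) in control and to 25753 and 26353 CPM in knockdown libraries. Of 16 granulosa and cumulus markers, 7 had 0 counts in every library (Amh, Amhr2, Foxl2, Inhba, Inhbb, Fst and Krt18). That list summed to 155.5 and 166.9 CPM in control and to 134.6 and 154.1 CPM in knockdown libraries, led by Nr5a2. Red blood cell markers, listed because these cells are rich in PRDX2, summed to between 11.9 and 19.9 CPM, led by Epb42, with Hba-a2 and Hbb-bt at 0. Theca and stroma markers, led by Hsd3b1, summed to 5.06 and 9.40 CPM in control and to 2.58 and 5.06 CPM in knockdown libraries, with Insl3, Col1a2, Col3a1 and Tagln at 0. Leukocyte and endothelium markers summed to between 129.3 and 141.7 CPM, led by Pecam1, with Adgre1, Lyz2, Cd14, Cdh5 and Emcn at 0. Both the granulosa and the theca sums thus lay lower in the knockdowns. For theca and stroma the groups nearly met, at 5.063 CPM in the lower control and 5.055 CPM in the higher knockdown. Most of the granulosa sum was Nr5a2, at 110.4 ± 9.98 CPM in control and 99.7 ± 12.6 CPM in knockdown libraries (SD, n = 2). Cyp11a1, a steroid synthesis gene of the theca list singled out after its values were seen, had 70 counts in each control library, and 11 and 5 after knockdown. Star of that list had 40 and 135 counts in control and 10 and 20 in knockdown libraries, and Hsd3b1 had 80 and 121, then 0 and 60. Cyp17a1 had 27 counts in knockdown replicate 2 and Lhcgr 8 in knockdown replicate 1, with 0 in all other libraries. Pdgfra of that list, also picked after its values were seen, went the other way. It had 0 and 19 counts in control and 52 and 68 in knockdown libraries. Cyp11a1 and Pdgfra were both low, with means of at most 1.63 CPM (Cyp11a1, control) and 1.56 CPM (Pdgfra, knockdown). The part of cells other than oocytes in the results below was not tested. In bulk RNA fewer cells of a type and less RNA per cell cannot be told apart.

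None of the 10 antioxidant genes passed the adjusted threshold of 0.05 in edgeR's quasi-likelihood test, where 0.0063% of all tested genes did. Their log2 fold changes (knockdown minus control) were above 0 for 6 and below 0 for 4, with a median of 0.07 beside 0.00 over all tested genes. At an unadjusted p under 0.05 edgeR listed 3 of the 10, where 5.51% of all tested genes and 5.66% of those of at least 10 CPM were listed. These were Prdx3, higher (2.94% of all tested genes), and Prdx5 and Gsta4, lower (2.57%). Without control replicate 2 the 3 became 1. DESeq2 called 2 of the 10, Prdx5 and Gsta4, both lower, where it called 1.86% of the genes it tested (0.793% lower). By limma-voom 0 were called and 4 had an unadjusted p under 0.05 (Prdx3, Prdx5, Prdx6 and Gsta4), where it listed 4.71% of all tested genes. The 2 groups did not overlap for 5 of the 10, where 34.9% of all tested genes and 35.5% of those of at least 10 CPM did not. Prdx2 and Prdx3 were above (18% of all tested genes), and Prdx5, Prdx6 and Gsta4 were below (16.8%). The 95% interval of the fold change lay within 2-fold in either direction for 8 of the 10 (not Prdx4 and Prdx6) and within 1.5-fold for 5 (Prdx1, Prdx2, Gpx4, Gsta4 and Sod1), where 46.7% and 28.8% of all tested genes did. Among tested genes of at least 10 CPM these shares were 87% and 54.2%. Knockdown replicate 2 was the highest of the 4 libraries for Prdx1, Prdx2, Prdx4, Gpx4, Sod1 and Sod2. The share of all tested genes with this pattern was not computed, so it may belong to the library and not to these genes.

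**Figure D1:**
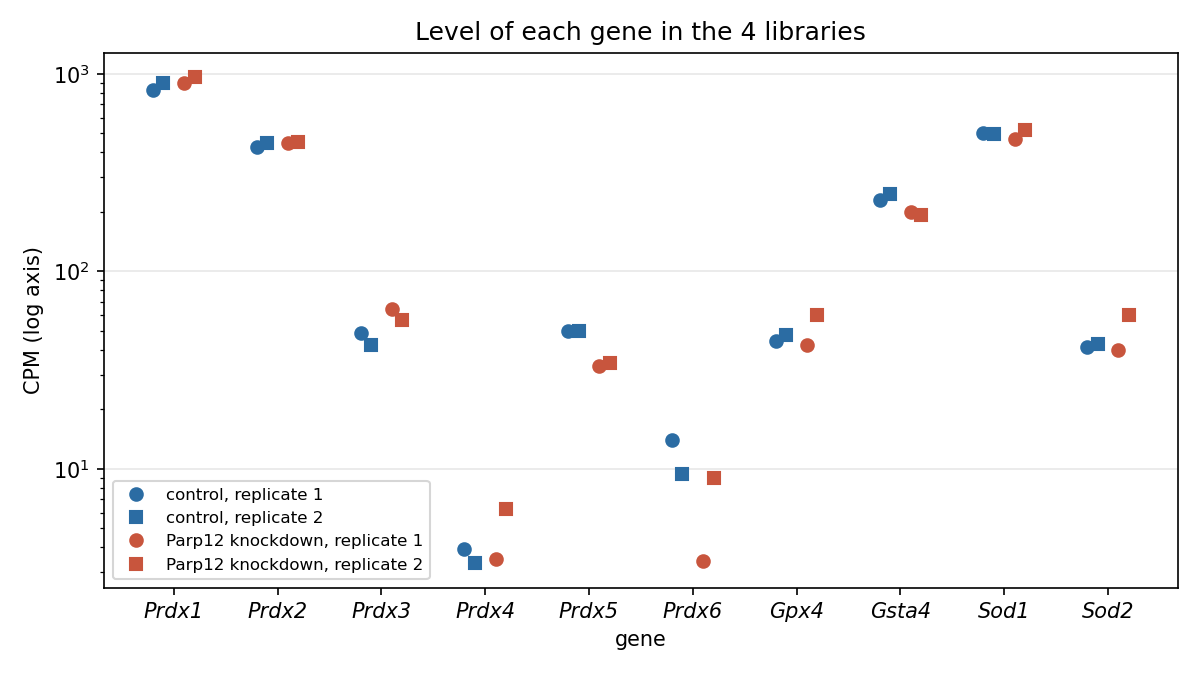
Level of each of the 10 genes, in CPM on a log axis, in the 2 control libraries (blue) and the 2 Parp12 knockdown libraries (red), with circles for replicate 1 and squares for replicate 2. The knockdowns sit below the controls for Prdx5, Prdx6 and Gsta4 and above them for Prdx2 and Prdx3, while the Prdx6 points of the knockdowns lie far apart at 3.43 and 9.02 CPM.

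Levels of different genes were compared per length, as TPM, in which counts are divided by the summed exon length in the table and then scaled to a common total. Prdx1 was the most abundant, with a mean of 1011 ± 59.9 TPM (SD over the 4 libraries), and it ranked between 102nd and 121st of all genes. Gsta4 followed at 587.6 ± 67.9 TPM, Prdx2 at 496.5 ± 11.9 TPM and Sod1 at 428.0 ± 19.1 TPM. Prdx3 (123.0 ± 22.4 TPM) and Gpx4 (96.7 ± 16.1 TPM) came next and overlapped across the libraries. Prdx5 stood at 67.0 ± 14.8 TPM and Sod2 at 15.8 ± 3.22 TPM. Prdx4 (6.92 ± 2.19 TPM) and Prdx6 (6.42 ± 3.12 TPM) were lowest and overlapped. The order depends on the length used. The length of the principal transcript in GENCODE was also used, for these 10 genes only and with the total left unchanged. The values so obtained are not TPM and compare only among the 10 genes. Sod1 then came first at 2651 ± 118.1, since that transcript has 641 nucleotides where the table counts 3970. Prdx1 was the next at 1341 ± 79.5, and 5 of the 10 genes held the same place in both orders.

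The cytosolic pair Prdx1 and Prdx2 made up most of the peroxiredoxin RNA. Both encode typical peroxiredoxins that cycle with cytosolic thioredoxin. Prdx1 (ENSMUSG00000028691.12), on chromosome 4 from 116685544 to 116700822 (plus strand, mm10), had 825.6 and 903.3 CPM in control and 897.9 and 960.4 CPM in knockdown libraries. The groups overlapped, the lower knockdown lying just under the higher control. Its log2 fold change of 0.10 (SE 0.07) had a 95% interval from -0.04 to 0.25, and edgeR gave an adjusted p of 0.861. Prdx2 (ENSMUSG00000005161.15), on chromosome 8 from 84969587 to 84974834 (plus strand), had 424.1 and 445.0 CPM in control and 447.4 and 449.9 CPM in knockdown libraries. The knockdowns lay above the controls by less than the controls differed between themselves, and edgeR estimated a log2 fold change of 0.04 (SE 0.07, 95% interval -0.11 to 0.20, adjusted p 0.961). Of all peroxiredoxin TPM, Prdx1 held 58.6% ± 1.43 in the controls and 59.5% ± 1.26 in the knockdowns, and Prdx2 held 29.4% ± 0.150 and 28.7% ± 0.641 (SD, n = 2). Of the 50-nucleotide stretches of the principal transcripts, 10.9% for Prdx1 and 23.8% for Prdx2 occur in transcripts of other genes, so reads from those stretches are uncertain. The genes sharing with Prdx1 are processed pseudogenes with 277 counts in all, beside 146945 for Prdx1. Prdx2 shares with the pseudogene Tdpx-ps1 (8.96%) and with Junb (8.13%) and Rnaseh2a (6.72%), which overlap it on the other strand.

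The peroxiredoxins of mitochondria had estimates in opposite directions, but neither passed edgeR's adjusted threshold. PRDX3 is found in the mitochondrial matrix, and PRDX5 is found in mitochondria, peroxisomes and the cytosol. Prdx3 (ENSMUSG00000024997.7), on chromosome 19 from 60864051 to 60874556 (minus strand), had 48.6 and 42.2 CPM in control and 64.4 and 56.8 CPM in knockdown libraries. Both knockdowns were above both controls. The log2 fold change of 0.42 (SE 0.17) had a 95% interval from 0.04 to 0.79, with an unadjusted p of 0.0331 and an adjusted p of 0.835 by edgeR, so it did not pass. By DESeq2 the adjusted p was 0.137, and over all alternatives it ran from 0.137 to 0.994.

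Prdx5 (ENSMUSG00000024953.17), on chromosome 19 from 6906697 to 6910106 (minus strand), had 49.7 CPM in both controls and 33.3 and 34.3 CPM in the knockdowns. The groups did not overlap, at 49.7 ± 0.0444 CPM against 33.8 ± 0.705 CPM (SD, n = 2), and knockdown libraries held 68.1% of the control level on average. An SD of 2 values can be small by accident, so the gap is not to be measured against it. The log2 fold change of -0.56 (SE 0.19) had a 95% interval from -0.96 to -0.15, with an unadjusted p of 0.0105 and an adjusted p of 0.835 by edgeR. DESeq2 called it, with an adjusted p of 0.00911, and over all alternatives the adjusted p ran from 0.00911 to 0.994. Its fold change moved little among them, from -0.58 to -0.53. In counts, which need no scaling between libraries, there were 0.977 and 0.850 Prdx3 counts per Prdx5 count in control and 1.93 and 1.65 in knockdown libraries. This ratio was chosen after its values were seen and was not tested.

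Prdx5 shares its start region with another gene. Trmt112, which encodes a partner protein of several methyltransferases, lies on the plus strand from 6909698 to 6911049, so the first 409 nucleotides of the Prdx5 gene overlap it on the other strand. Of the 50-nucleotide stretches of the principal Prdx5 transcript, 29.7% also occur in Trmt112 transcripts, read on either strand. Trmt112, singled out after its values were seen, had 29.3 and 29.7 CPM in control and 20.7 and 21.4 CPM in knockdown libraries. Its log2 fold change was -0.49 (SE 0.24), with an adjusted p of 0.835 by edgeR and 0.130 by DESeq2. The sources used here do not say whether counting used strand, so reads of the overlap cannot be told apart, and their part in the Prdx5 values was not tested.

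Prdx6 and Prdx4 were the least abundant peroxiredoxins and the least precisely measured. PRDX6 is the member with a single catalytic cysteine and also has phospholipase activity. Prdx6 (ENSMUSG00000026701.15), on chromosome 1 from 161240112 to 161251219 (minus strand), had 14.0 and 9.43 CPM in control and 3.43 and 9.02 CPM in knockdown libraries. The groups did not overlap, but the higher knockdown lay just under the lower control. The log2 fold change of -0.99 (SE 0.49) had a 95% interval from -2.03 to 0.06 (adjusted p 0.835 by edgeR). It was -0.39 without knockdown replicate 1, -0.64 without control replicate 1 and -1.79 without knockdown replicate 2. PRDX4 works in the endoplasmic reticulum, where it couples peroxide removal to the oxidation of proteins. Prdx4 (ENSMUSG00000025289.15), on chromosome X from 155323918 to 155340754 (minus strand), had 3.94 and 3.32 CPM in control and 3.50 and 6.23 CPM in knockdown libraries. The groups overlapped, with knockdown replicate 2 alone standing high; the log2 fold change was -0.061 without that library and 0.77 without knockdown replicate 1. With all libraries the interval of its log2 fold change of 0.38 (SE 0.60), from -0.92 to 1.68, takes in a 2-fold difference in the higher direction.

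**Figure D2:**
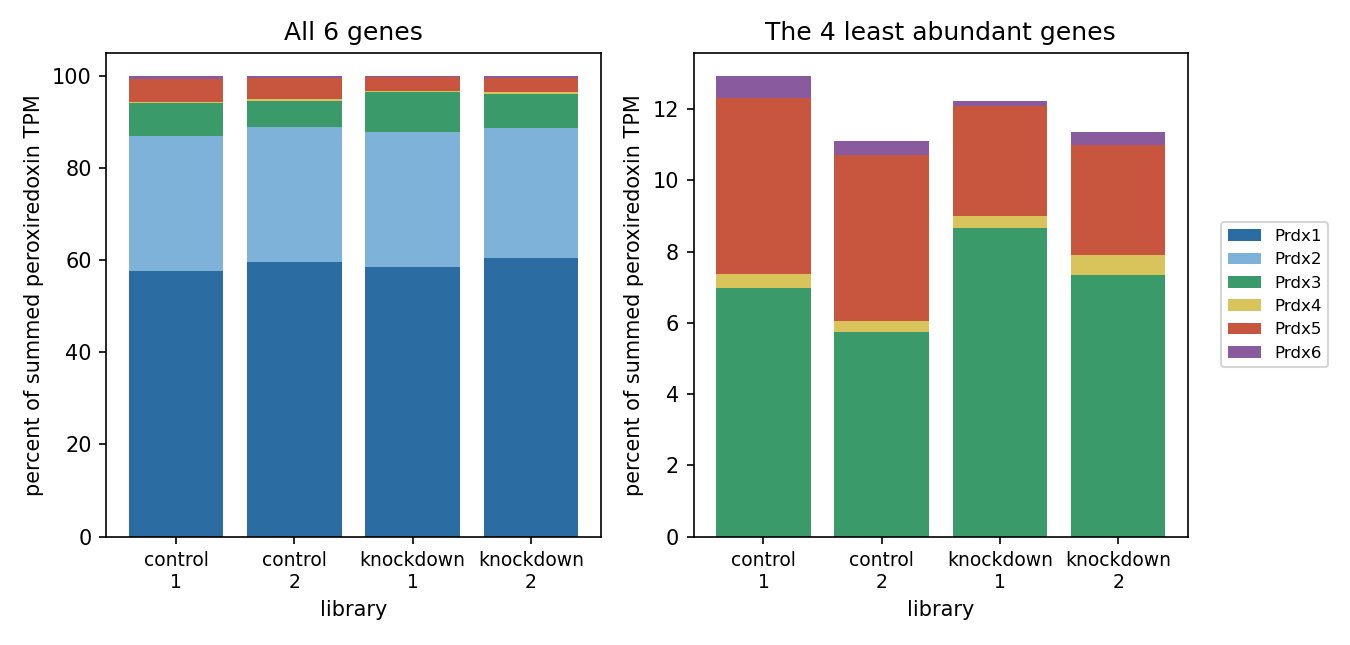
Share of each peroxiredoxin gene in the summed peroxiredoxin TPM of each library, in percent, for all 6 genes (left) and for the 4 least abundant ones (right). The Prdx5 share is 4.93% and 4.66% in control and 3.10% and 3.07% in knockdown libraries, and the Prdx3 share is 6.98% and 5.74% in control and 8.66% and 7.35% in knockdown libraries.

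The peroxiredoxin total was 1624 and 1702 TPM in control and 1725 and 1790 TPM in knockdown libraries. Both knockdown totals thus lay above both control totals, as did 18% of single tested genes on CPM, and this was not tested. With principal transcript lengths the Prdx5 share was 5.43% ± 0.216 in the controls and 3.53% ± 0.0236 in the knockdowns, and the Prdx3 share was 4.25% ± 0.585 and 5.41% ± 0.633 (SD, n = 2). Prdx3 thus had a lower share than Prdx5 in the controls and a higher one in the knockdowns on that scale, and a higher one in all 4 libraries with summed exon lengths.

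Among the glutathione enzymes, Gsta4 was lower in both knockdown libraries and Gpx4 was not separated. GSTA4 couples glutathione to 4-hydroxynonenal, a product of lipid peroxidation. Gsta4 (ENSMUSG00000032348.6), on chromosome 9 from 78182774 to 78209349 (plus strand), had 228.4 and 246.9 CPM in control and 198.6 and 193.8 CPM in knockdown libraries. Its log2 fold change of -0.28 (SE 0.09) had a 95% interval from -0.48 to -0.08, and knockdown libraries held 82.6% of the control level on average. Its unadjusted p, 0.0101, was the smallest of the 10, and its adjusted p was 0.835 by edgeR. DESeq2 called it at an adjusted p of 0.0120, and over all alternatives the adjusted p ran from 0.0120 to 0.994. No 50-nucleotide stretch of its principal transcript occurs in transcripts of another gene.

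GPX4 is the selenium enzyme that reduces lipid peroxides within membranes and holds back ferroptosis. Gpx4 (ENSMUSG00000075706.10), on chromosome 10 from 80047166 to 80056439 (plus strand), had 44.1 and 47.4 CPM in control and 42.5 and 60.4 CPM in knockdown libraries. The knockdowns lay on either side of the controls. The log2 fold change of 0.15 (SE 0.20) had a 95% interval from -0.28 to 0.58 (adjusted p 0.953 by edgeR), and it was -0.11 without knockdown replicate 2. Of its 50-nucleotide stretches 68.9% also occur in Gpx4-ps2, a transcribed processed pseudogene with between 35 and 110 counts, so Gpx4 values are uncertain to the extent that the counting split such reads.

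Neither superoxide dismutase gene was separated between the groups. SOD1 is the copper and zinc enzyme of the cytosol, and SOD2 is the manganese enzyme of the mitochondrial matrix. Sod1 (ENSMUSG00000022982.10), on chromosome 16 from 90220754 to 90226329 (plus strand), had 499.2 and 495.1 CPM in control and 467.1 and 520.4 CPM in knockdown libraries. The knockdowns fell on either side of the controls, and the 95% interval of the log2 fold change of -0.01 (SE 0.08) ran from -0.18 to 0.15. It turned to 0.0057 without control replicate 1 and to 0.066 without knockdown replicate 1. Sod2 (ENSMUSG00000006818.5), on chromosome 17 from 13006846 to 13040063 (plus strand), had 41.3 and 43.0 CPM in control and 40.1 and 60.2 CPM in knockdown libraries. Knockdown replicate 2 alone stood high, and the estimate of 0.23 (SE 0.21) had a 95% interval from -0.23 to 0.69. It was -0.072 without that library. The adjusted p was 0.987 for Sod1 and 0.922 for Sod2 by edgeR. Sod1 overlaps Scaf4 by 650 nucleotides on the other strand. Of the 50-nucleotide stretches of its principal transcript, 23.1% occur in Gm8566, a processed pseudogene with between 61 and 89 counts per library. For Sod2 the share found in other genes was 1.43% for the principal transcript and 21.0% over all its transcripts.

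**Figure D3:**
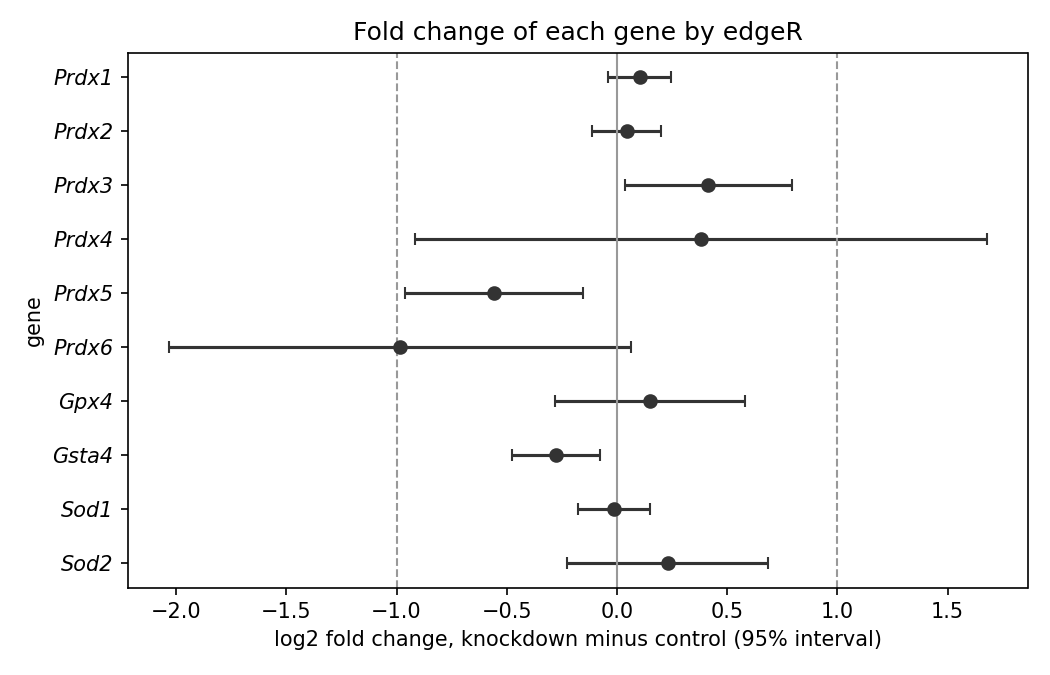
Log2 fold change of each gene, knockdown minus control, as estimated by edgeR (points) with its 95% interval (bars); dashed lines mark a 2-fold difference. The intervals of Prdx3, Prdx5 and Gsta4 leave out 0, and those of Prdx4 and Prdx6 reach past a dashed line.

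To name genes with the most similar pattern, levels were compared across the libraries. By the smallest root mean square difference of centred log2 CPM over the 4 libraries, among genes within 2-fold of its level, the gene nearest to Prdx1 was Tubb2a (0.0103, of 295 genes) and the gene nearest to Gsta4 was Myo1c (0.00647, of 1871 genes). Such a likeness over 4 libraries is a description only.

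**Figure D4:**
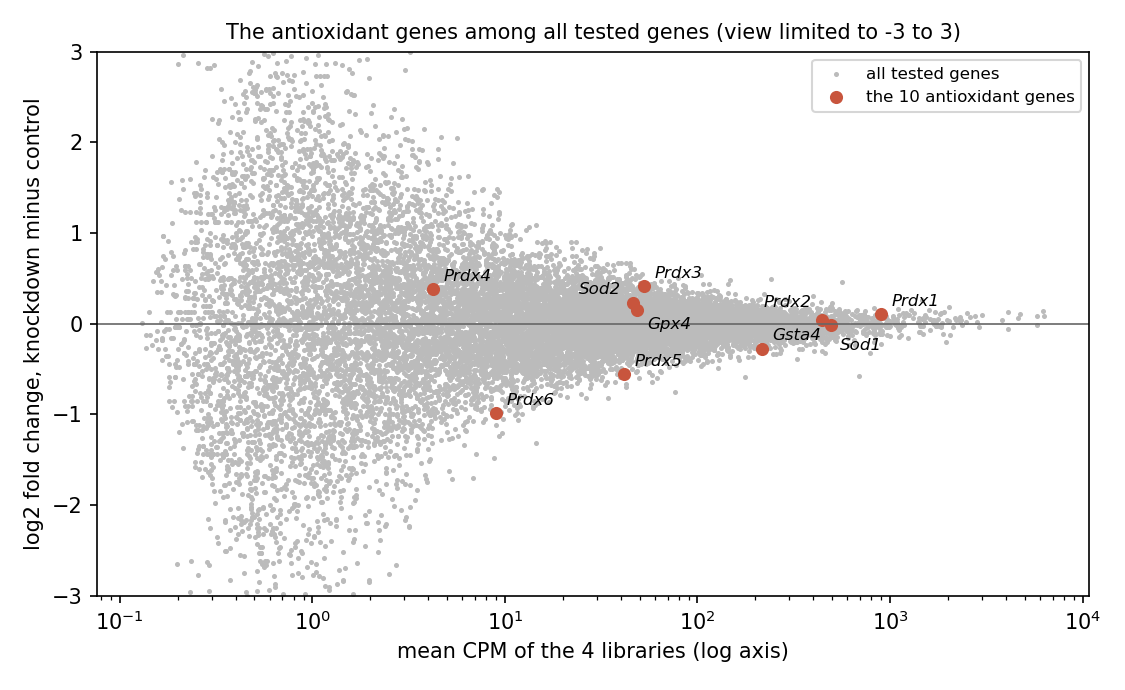
Log2 fold change, knockdown minus control, against the mean CPM of the 4 libraries on a log axis for all 15868 tested genes (grey) and the 10 antioxidant genes (red); the view is limited to fold changes between -3 and 3. Prdx5, Prdx6 and Gsta4 lie below 0 and the scatter of all genes widens towards low levels.

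Promoter sequences are shown for Prdx1 and Sod1, whose windows match the core of the antioxidant response element, and for Prdx5, whose start region overlaps Trmt112. They come from RefSeq on GRCm38.p6, which holds entries for 8 of the 10 genes. That core, TGACNNNGC, is the motif bound by NRF2 and was searched on both strands. The GC box GGGCGG and the CCAAT box CCAAT were searched as well, and capitals mark matches to any of these motifs. Each sequence runs 5′ to 3′ on the strand of the gene, starts 250 bases before the RefSeq start and stops where an untranslated region annotated on either strand begins. They lie at chr4:116685349-116685543 (plus strand) for Prdx1, chr16:90220512-90220753 (plus strand) for Sod1 and chr19:6910185-6910356 (minus strand, inside Trmt112) for Prdx5.
Prdx1: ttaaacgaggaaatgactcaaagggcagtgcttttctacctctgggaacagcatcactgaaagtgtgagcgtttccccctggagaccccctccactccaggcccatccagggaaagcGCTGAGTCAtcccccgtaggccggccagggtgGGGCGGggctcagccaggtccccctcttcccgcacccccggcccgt
Sod1: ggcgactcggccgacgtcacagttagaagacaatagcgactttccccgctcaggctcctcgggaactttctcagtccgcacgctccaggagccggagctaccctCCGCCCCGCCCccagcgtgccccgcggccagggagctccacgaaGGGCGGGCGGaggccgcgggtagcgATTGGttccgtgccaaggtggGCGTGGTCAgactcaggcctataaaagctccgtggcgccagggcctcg
Prdx5: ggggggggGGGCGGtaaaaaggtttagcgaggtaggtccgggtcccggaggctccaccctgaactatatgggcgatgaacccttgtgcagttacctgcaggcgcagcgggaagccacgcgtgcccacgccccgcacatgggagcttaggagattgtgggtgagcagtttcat

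Within 250 bases before the start, the antioxidant response element core was found in Prdx1, from base -133, and in Sod1, from base -56, and in no other of the 8 genes. These are 2 of 11 windows, and it occurs in 10.2% of all 32851 promoters of that length. The match in Prdx1 overlaps an AP-1 site, TGANTCA, which has 2 matches in that promoter and occurs in 6.75% of all promoters. The 8 genes have 11 such windows, since Gpx4 has 4 starts, and some of its windows overlap. A GC box was found in 9 of the 11 windows (7 genes), where 32.7% of all promoters hold one, and a CCAAT box in 6 of the 11 (4 genes), where 33.8% do. Such matches are descriptions of the letters in this window. The 11 windows held between 55.6% and 69.2% G and C, beside a median of 52.4% over all promoters. The part of base content in the GC box matches was not tested.

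The partners of these enzymes were followed in 8 lists with 105 tested genes. None passed edgeR's adjusted threshold, where 0.0063% of all tested genes did, and DESeq2 called 0 of them, where it called 1.86% of the genes it tested. At an unadjusted p under 0.05 edgeR listed 7 of the 105 (6.67%), where 5.51% of all tested genes were listed. Of these, 2 were higher (Aifm2 and Tfrc, beside 2.94% of all tested genes) and 5 lower (Txnip, Sesn2, Chac2, Glrx3 and Sephs2, beside 2.57%). Aifm2, which protects membranes from lipid peroxidation apart from GPX4, had 0 counts in both controls and 74 and 18 after knockdown. With these counts it passed the filter on low counts through the knockdown libraries alone. A gene absent from the controls can be tested only if it is higher in the knockdowns, so the direction of Aifm2 carries no weight. The 95% interval of its log2 fold change was wide, from 0.69 to 16.5. The lists on thioredoxin, glutathione synthesis, superoxide, NRF2 and lipid peroxidation each mix genes of opposite action. For these lists, tallies above and below 0 and medians do not give the direction of a pathway.

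Thioredoxin partners, which reduce peroxiredoxins or act on them, were mostly below 0. Of 10 tested, 2 were above 0 and 8 below, with a median log2 fold change of -0.17, or between -0.18 and -0.10 when a library was left out (-0.10 without control replicate 2). Txnip, which binds and inhibits thioredoxin, was the most abundant per length (913.3 ± 78.5 TPM, SD over the 4 libraries). It had 879.9 ± 69.9 CPM in control and 783.1 ± 7.25 CPM in knockdown libraries (SD, n = 2), with an adjusted p of 0.835 by edgeR. Sesn2, a stress-induced sestrin, had 651 and 765 counts in control and 411 and 234 in knockdown libraries (95% interval of the log2 fold change -1.80 to -0.20). Its adjusted p was 0.835 by edgeR and 0.0578 by DESeq2. Srxn1, the sulfiredoxin that repairs overoxidised peroxiredoxins, had 0 counts in all 4 libraries, which allows up to between 0.0663 and 0.0838 CPM, taking 3 counts as the limit for each library.

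Of 17 tested genes for synthesis and recycling, 7 were above 0 and 10 below, with a median of -0.05, which turned to 0.021 without control replicate 1. Glrx, a glutaredoxin, was the most abundant per length at 428.9 ± 10.1 CPM in control and 424.9 ± 0.681 CPM in knockdown libraries (SD, n = 2). Chac2, which breaks down glutathione, had the smallest p, with 1398 and 1466 counts in control and 476 and 998 in knockdown libraries and an adjusted p of 0.835 by edgeR. Of the 32 relatives of Gpx4 and Gsta4 in the table, 10 had 0 counts in all libraries and 17 were tested, with a median of 0.07. Without control replicate 2 this median was 0.48, and without knockdown replicate 2 it was 0.30. It includes Mgst1, with 21 and 25 counts in control and 0 in both knockdown libraries, whose direction carries no weight for the same reason. Mgst3, a microsomal transferase, was the most abundant per length, at 261.5 ± 49.1 TPM against 587.6 ± 67.9 TPM for Gsta4 (SD over the 4 libraries). Gpx3, a secreted peroxidase, had the smallest p, with 24.6 ± 1.45 CPM in control and 32.9 ± 1.94 CPM in knockdown libraries (SD, n = 2) and an adjusted p of 0.835 by edgeR.

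Superoxide and catalase partners gave 6 tested genes, 2 above 0 and 4 below. Their median had no stable sign: it was -0.19, between -0.32 and 3.54 when a library was left out (3.54 without control replicate 1, 1.06 without control replicate 2 and 0.13 without knockdown replicate 2), and 0.80 with DESeq2. Ccs, the copper chaperone that loads SOD1, was both the most abundant per length and the one with the smallest p, at 13.2 ± 0.796 CPM in control and 7.56 ± 1.86 CPM in knockdown libraries (SD, n = 2). Its log2 fold change was -0.82 (SE 0.39, adjusted p 0.835 by edgeR). Sod1 itself, as given above, was not separated between the groups. The NRF2 axis, through which antioxidant genes are induced, had 5 of 15 tested genes above 0 and 10 below, with a median of -0.17. The median was -0.047 without knockdown replicate 2 and -0.084 without control replicate 2. The list mixes NRF2 and its targets with its inhibitor Keap1 and other partners, so these tallies do not give a direction of the axis. Nfe2l1, a relative of NRF2, was the most abundant per length and had the smallest p, at 349.6 ± 9.85 and 304.3 ± 35.5 CPM (adjusted p 0.835 by edgeR).

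NADPH supply had 10 of 16 tested genes above 0 and 6 below, with a median of 0.05, which turned to -0.11 without knockdown replicate 2 and was 0.0997 without knockdown replicate 1. G6pdx, the entry enzyme of the pentose phosphate pathway, stood at 1077 ± 30.6 TPM, beside 1011 ± 59.9 TPM for Prdx1 (SD over the 4 libraries). Its CPM was 959.4 ± 10.97 in control and 974.8 ± 45.3 in knockdown libraries (SD, n = 2). Me1, cytosolic malic enzyme, had the smallest p, with 493.7 ± 42.0 and 545.0 ± 18.7 CPM and an adjusted p of 0.841 by edgeR. The machinery of selenoprotein synthesis, on which GPX4 depends, had 4 of 11 tested genes above 0 and 7 below, with a median of -0.14. It turned to 0.093 without control replicate 2 and to 0.056 without knockdown replicate 2, and it was -0.26 without control replicate 1 and -0.27 without knockdown replicate 1. Sephs2, which makes the selenium donor, had 50.9 ± 3.09 and 37.7 ± 6.15 CPM (log2 fold change -0.45, SE 0.19, adjusted p 0.835 by edgeR), and Trit1, a modifier of transfer RNA, was the most abundant per length at 44.2 ± 8.81 and 51.9 ± 1.02 CPM. The lipid peroxidation partners of Gpx4 had 8 of 13 tested genes above 0 and 5 below, with a median of 0.06, or between 0.020 and 0.17 when a library was left out. These tallies include Aifm2 above 0 and Alox15 below. Alox15 had 18 and 28 counts in control and 0 in both knockdown libraries. Each of the 2 passed the filter through 1 group alone, so neither direction carries weight. Tfrc, the transferrin receptor that brings in iron, had 39.1 ± 11.7 CPM in control and 57.0 ± 10.1 CPM in knockdown libraries (adjusted p 0.835 by edgeR), and Ncoa4, which directs ferritin to degradation, was the most abundant per length at 145.5 ± 13.4 and 152.3 ± 3.06 CPM.

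**Figure D5:**
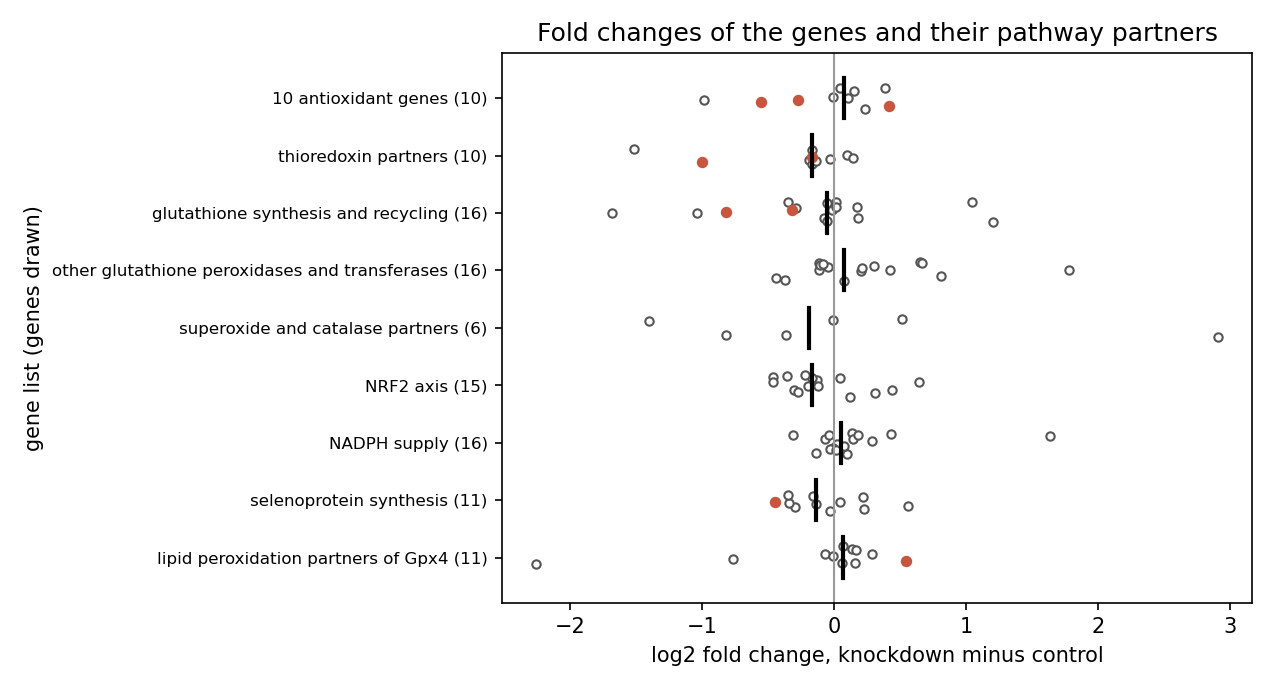
Log2 fold change, knockdown minus control, of the 10 antioxidant genes and of 101 tested genes in 8 lists of their partners; filled points have an unadjusted p under 0.05 by edgeR and black bars are the median of all tested genes of a list. The 4 tested genes with 0 counts in a whole group are left out as points, and the medians lie between -0.19 and 0.07 with all 4 libraries; the sign of 4 of them turned when a single library was left out (the first glutathione list, superoxide, NADPH and selenoprotein lists).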

How the data were processed

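RNA of 4 oocyte libraries was sequenced, and titles gave the group and replicate number. Poly(A) RNA was selected from column-purified RNA, per the labels' protocols. The authors deposited raw read counts per gene with the summed exon length. The submitters' processing notes name mm10, DESeq2 1.28.1, featureCounts 2.0.0, STAR 2.7.5b and Trim Galore 0.6.4, without their roles. The sources used here do not state strand use or how reads with several alignments were treated. Nothing says that replicates came from separate animals, so p-values measure the spread among these 4 libraries alone, and that may be technical.

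The 55453 genes included 0 without a name, and 0 columns belonged to other samples. Counts were tested in R 4.3.3 with edgeR 4.0.16: filterByExpr defaults (minimum count 10, total 15), TMM factors (0.991 to 1.01), estimateDisp, glmQLFit (robust, not the legacy fit) and glmQLFTest, two-sided, with Benjamini-Hochberg adjustment over 15868 genes at 0.05. The SE came from the F statistic. An exact permutation test of a single value over 4 libraries cannot go below 0.333, so none is given. A chi-square of replicate counts per degree of freedom was 38.0 (controls) and 32.6 (knockdowns), far from copies of 1 library. Coordinates of all 10 genes were the same in GENCODE vM21. Intervals cover the spread of these libraries and the limit of 3 counts covers counting error only, since PCR copies are not independent molecules.

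Alternatives were no filter on low counts, median-of-ratios factors, unscaled library totals, a filter of 1 CPM in each library of either group, a replicate block, DESeq2 1.42.0, limma-voom (limma 3.58.1), leaving out each library and, chosen after seeing the data, edgeR's legacy fit and principal transcript lengths. The fit was tested on simulated data.

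The 10 genes, the lists and the tests were chosen with earlier results of these data known. The text names all 10 genes, Parp12, from each partner list the most abundant gene per length and the one with the smallest p, and the nearest pattern for 2 genes. Trmt112 and the count ratio were chosen after their values were seen. So were Srxn1, Aifm2, Alox15, Gsr, Mgst1, Glrx3, Cyp11a1, Star, Cyp17a1, Lhcgr and Pdgfra. The same holds for the genes named as sharing stretches with Prdx2, Gpx4 and Sod1. Protein sequences were not used here, and 1 gene of a marker list is not reported here.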

Additional observations from a re-analysis of the deposited data

How the results depend on the processing

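No antioxidant gene was called under any alternative with edgeR or limma-voom, and 2 were called with DESeq2 (Prdx5, -0.56, and Gsta4, -0.28, on the log2 scale). The number of calls over all genes was 1; it was 8 with a filter of 1 CPM in each library of either group, 305 with DESeq2 and 0 with limma-voom, and it ran from 1 to 2 when a library was left out (2 without knockdown replicate 1). Parp12 had -7.73 with limma-voom and lost its call there. Leaving out knockdown replicate 2 turned the direction of Prdx4 (range when a library was left out -0.061 to 0.77), Gpx4 (-0.11 to 0.40) and Sod2 (-0.072 to 0.52). Leaving out control replicate 1 (0.0057) or knockdown replicate 1 (0.066) turned that of Sod1 (range -0.092 to 0.066). The cause was not tested. The log2 fold changes of Prdx1, Prdx2, Prdx3, Prdx5, Prdx6 and Gsta4 kept their sign in all 12 alternatives. The number of the 10 genes whose groups did not overlap was 5 on CPM, where 34.9% of all tested genes did not. It was 6 with TMM or median-of-ratios factors, for which the share of all tested genes was not computed. In the order of levels, 5 of the 10 genes held their place with principal transcript lengths and 4 with CPM. With the replicate number as a block, 0 of the 10 were called and Prdx5 had -0.56 (adjusted p 0.942 by edgeR). Deviations of same-numbered libraries from their group means correlated at 0.0152 over genes of at least 10 CPM. With 2 libraries per group this cannot tell whether same-numbered libraries share an animal or a preparation. Without control replicate 2, 1 of the 10 stood at an unadjusted p under 0.05 in place of 3. List medians, taken over the genes tested in each fit, changed sign when a single library was left out for 4 of 8 lists. That of the superoxide and catalase partners (-0.19) was 0.80 with no filter on low counts or with DESeq2, and -0.37 with the 1 CPM filter. Prdx4 and Prdx6 had 136 to 635 counts per library, the fewest of the 10.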
